A study of Mus musculus with 8 samples.

Results

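The respiratory chain subunits described here are 84 mouse protein-coding genes of the nucleus, out of 52016 genes listed in the table and 21474 mouse protein-coding genes. They were chosen by the start of their symbols (Ndufa, Ndufb, Ndufc, Ndufs, Ndufv, Sdha to Sdhd, Uqcr, Cox4i, Cox5 to Cox8 and Atp5), which found 97 genes. From these, 12 assembly factors (Ndufaf and Sdhaf genes) and Ndufb2 were left out. By complex, the genes fall into 35 of complex I, 4 of complex II, 8 of complex III, 20 of complex IV and 17 of complex V. Ndufa4 and Ndufa4l2 were counted with complex IV, where their proteins reside. Atp5s and Cox7a2l entered by their names, although the first is a coupling-type factor and the second binds complexes together into larger assemblies.

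The RNA came from serum exosomes, vesicles in the blood that were precipitated with ExoQuick. All mice were of the NCr nu/nu strain, which lacks a thymus and mature T cells. The 8 libraries form 4 groups of 2: serum of week 0, taken before any injection; serum of week 8 after 10 µl of PBS into the tibia; and serum of week 8 after 100000 cells of OSCA-32 or of OSCA-40, both canine osteosarcoma lines. The labels describe pooled serum and do not tie the libraries of a group to separate animals, so the p-values cover the scatter of these libraries alone, and that scatter could be technical. The values are whole numbers that behave like TPM (expression adjusted for transcript length and library total) over both species, and each library sums to between 977106 and 989183.

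The respiratory chain sits in the inner mitochondrial membrane. Complexes I and II take electrons from NADH and succinate, complex III passes them to cytochrome c, complex IV gives them to oxygen, and complex V, the ATP synthase, uses the proton gradient built along the way. Most subunits are encoded in the nucleus, translated in the cytosol and imported, while a small core is encoded by mitochondrial DNA, so that both genomes contribute to all complexes but complex II. In tissues, nuclear subunit mRNAs are abundant in heart, muscle and brown fat, and several complex IV subunits have separate muscle and liver forms.

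In the 4 libraries without tumour cells, week 0 and PBS, the subunit mRNAs lay close to an ordinary protein-coding gene. The median member had a mean value of 6.13 there, above 58.7% of protein-coding genes, whose median was 4.75. Means ran from 1.0 for Ndufb6, an accessory subunit of complex I, to 130.25 for Ndufab1, the acyl carrier protein of complex I. By bins, 8 members had a mean under 2, 30 lay from 2 to under 5, 22 from 5 to under 10, 19 from 10 to under 50, and 5 at 50 or more. The median was 5.5 for complex I, 8.25 for complex II, 6.5 for complex III, 4.0 for complex IV and 8.75 for complex V. Values between genes are compared here on this length-adjusted scale only.

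**Figure D1:**
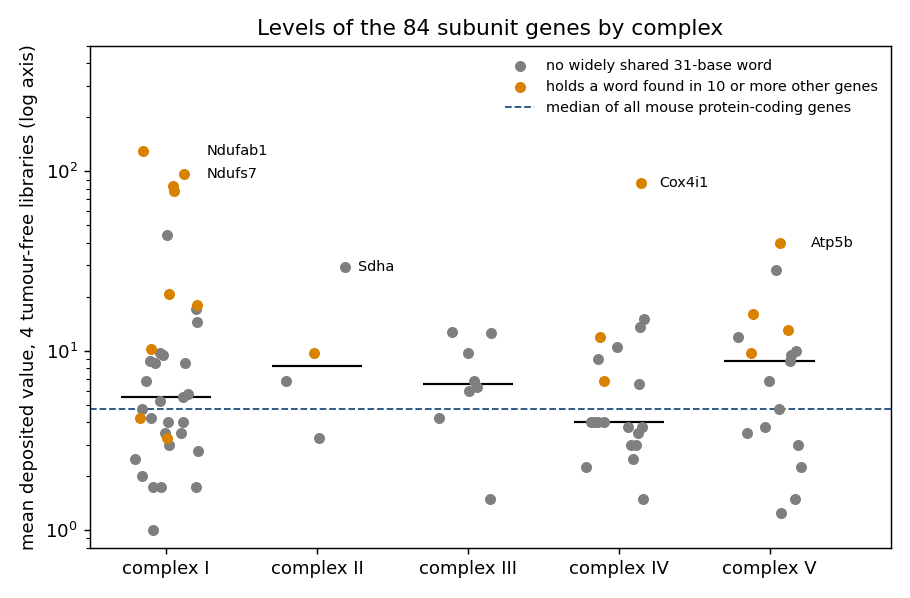
Mean deposited value over the 4 libraries without tumour cells, on a log axis, for each of the 84 subunit genes, by complex; black bars are the medians of each complex and the dashed line is the median of all mouse protein-coding genes. All 5 genes at 50 or more hold at least 1 stretch of 31 bases that is also found in 10 or more other listed genes (orange points).

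Subunits that stand side by side in one complex differed widely. Ndufs8 and Ndufs7, which both carry iron-sulphur clusters of complex I, had means of 2.75 and 96.5 without tumour cells. The 5 highest members were Ndufab1, Ndufs7, Cox4i1, Ndufv3 and Ndufs1, and together they held between 39.6% and 44.9% of the summed value of all 84 in every library. Without them, the median of the other 79 was 5.5.

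The transcripts of these 5 genes in GENCODE M21 were examined for sequence that also occurs elsewhere, since a read that falls within a repeat cannot be placed by those letters alone. Each of the 5 held at least 1 word of 31 bases found in 10 or more other listed mouse genes, and in each the most widely shared word lay in a retained-intron or processed transcript of the gene and in none of its coding transcripts. The first 30 bases of these words are given as they stand in the gene, 5′ to 3′, with positions on GRCm38.
Ndufs7, chr10:80253897-80253926, plus strand: tgtgtgtgtgtgtgtgtgtgtgtgtgtgtg
Ndufab1, chr7:122093375-122093404, minus strand: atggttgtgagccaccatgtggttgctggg
Ndufs1, chr1:63150893-63150922, minus strand: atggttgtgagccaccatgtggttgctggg
Ndufv3, chr17:31529275-31529304, plus strand: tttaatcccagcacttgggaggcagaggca
Cox4i1, chr8:120669779-120669808, plus strand: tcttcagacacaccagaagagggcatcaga
The Ndufs7 word is a run of TG repeats and occurs in 1820 other listed genes. Ndufab1 and Ndufs1 carry the same word, found in 537 other genes each. The Ndufv3 word is in 498 others and that of Cox4i1 in 107. Such words were a small part of each gene: 8 of 1753 in Ndufs7, 125 of 6869 in Ndufab1, 79 of 8286 in Ndufs1, 35 of 3244 in Ndufv3 and 21 of 1633 in Cox4i1.

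Over all 84 members, 17 (20.2%) held such a word, against 8502 of 21474 protein-coding genes (39.6%). The 17 had a median value of 16.0 without tumour cells and the other members 4.25. The same split ran through protein-coding genes at large, with medians of 7.75 and 4.0, and 751 of the 833 protein-coding genes at 50 or more (90.2%) held one. Across genes, the level and the percentage of words so shared had a Spearman correlation of 0.49 over the 84 members and 0.24 over the protein-coding genes. Level and the number of words, a measure of annotated sequence, had one of 0.45 over the members and 0.34 over the protein-coding genes, so longer annotation and repeats went together with higher values. Genes share the same libraries and are no independent replicates. How many reads at these genes came from the repeats was not tested.

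Some of the promoters hold known motifs, which the choice by name did not use; whether they are enriched was not tested. RefSeq windows on GRCm38.p6, from 250 bases before to 50 after a start, matched 68 of the 84 members. The site of NRF1, a factor known for its hold on respiratory genes, was searched as GCGC, any base, then TGCGC, and occurred in 17 of the 68 (25%), against 5.19% of all genes with a window. The ETS core CCGGAAG, bound by GABP, was in 16 (23.5%, against 9.93%), and the YY1 site AAGATGGC in 10 (14.7%, against 3.19%). GGGCGG, the SP1 box, was in 29 (42.6%, against 38.2%) and the cyclic AMP element TGACGTCA in 3 (4.41%, against 2.03%). Every motif was searched on both strands and on its own, so matches of different motifs may overlap. A match is no evidence of binding, and members with the NRF1 letters had a median level of 4.25 against 6.5 for those without. The 250 bases before the start of Sdha, which hold 3 NRF1 matches, and of Atp5h, which hold 1 NRF1 and 1 ETS match, show the arrangement, with matches in capitals.
Sdha, chr13:74350241-74350490, minus strand: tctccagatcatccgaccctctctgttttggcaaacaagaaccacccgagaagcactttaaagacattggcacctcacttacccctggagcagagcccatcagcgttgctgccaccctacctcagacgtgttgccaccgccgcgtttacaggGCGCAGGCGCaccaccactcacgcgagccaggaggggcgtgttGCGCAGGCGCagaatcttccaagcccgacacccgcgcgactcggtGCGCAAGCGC
Atp5h, chr11:115419920-115420169, minus strand: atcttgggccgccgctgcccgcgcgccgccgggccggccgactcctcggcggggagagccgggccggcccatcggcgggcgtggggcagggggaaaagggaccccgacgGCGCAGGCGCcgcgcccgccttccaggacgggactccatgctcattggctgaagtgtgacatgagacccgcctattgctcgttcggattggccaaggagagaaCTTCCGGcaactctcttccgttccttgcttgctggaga

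Between libraries, the summed value of the 84 genes was 1030 and 1094 at week 0, 1164 and 1151 after PBS, 788 and 702 for the OSCA-32 pair, and 394 and 426 for the OSCA-40 pair. Canine genes took 16.1% and 17.4% of the total at week 0, 14.7% and 15.2% after PBS, 44.7% and 43.3% for OSCA-32, and 68.4% and 70.7% for OSCA-40. The deposited values of mouse genes therefore fall as a body in the tumour libraries: among tested mouse genes 92.5% lay lower in both OSCA-40 libraries than in both PBS libraries, and 28 of the 30 tested members (93.3%) did so. For OSCA-32 the shares were 64.8% of mouse genes and 19 of 30 members (63.3%). The week 0 and PBS mice had received no canine cells, yet canine genes had values there. Whether canine reads entered the values of mouse subunits in the tumour libraries was not tested. The canine subunit genes were not analysed.

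As a share of mouse values, the means of the 4 groups differed by less than the SD of either tumour pair. The subunits made up 0.130% ± 0.00703 (SD, n = 2) at week 0, 0.139% ± 0.000457 after PBS, 0.135% ± 0.0135 with OSCA-32 and 0.137% ± 0.0148 with OSCA-40. The single libraries ran from 0.125% to 0.147%, and the ranges of the OSCA-40 and OSCA-32 pairs both enclosed the PBS pair. Both PBS libraries (0.140% and 0.139%) lay above both week 0 libraries (0.125% and 0.135%). An mRNA carried by fewer vesicles and fewer copies in each vesicle cannot be told apart in such data.

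The 13 mRNAs of the same complexes that are encoded in mitochondrial DNA differed more between groups. Their summed value was 168 and 198 at week 0, 514 and 673 after PBS, 996 and 715 for OSCA-32, and 380 and 350 for OSCA-40. Per unit of nuclear subunit value this came to 0.172 ± 0.0126 at week 0, 0.513 ± 0.101 after PBS, 1.14 ± 0.174 with OSCA-32 and 0.893 ± 0.101 with OSCA-40 (SD, n = 2). Every library of a later group lay above both week 0 libraries, and every tumour library lay above both PBS libraries. The mitochondrial share of mouse values was 0.0225% ± 0.00286, 0.0715% ± 0.0139, 0.156% ± 0.0389 and 0.121% ± 0.000610 in the same order (SD, n = 2). Within the summed values, mt-Atp6 differed widely between replicates, with 0 and 44 at week 0 and 0 and 84 after PBS. It had 195 and 0 for OSCA-32 and 93 and 105 for OSCA-40, and the sums without it were not tested. Values of 0 also occurred in some libraries for mt-Nd3, mt-Nd4l and mt-Co3. For mt-Co2 the values were 67 and 84 after PBS, but 9 and 4 with OSCA-40. In limma, with adjusted p-values over all genes tested, 6 of the 13 rose and 0 fell with OSCA-32 against PBS, and 5 rose and 1 fell with OSCA-40. Among all tested mouse genes 0.379% rose and 0.17% fell with OSCA-32, and 2.89% rose and 2.33% fell with OSCA-40. Between week 0 and PBS 3 of the 13 rose, with no tumour cells present, where 0.0523% of tested mouse genes rose. Some of these mRNAs have near-identical copies in the nuclear genome, and the part of those copies was not tested.

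**Figure D2:**
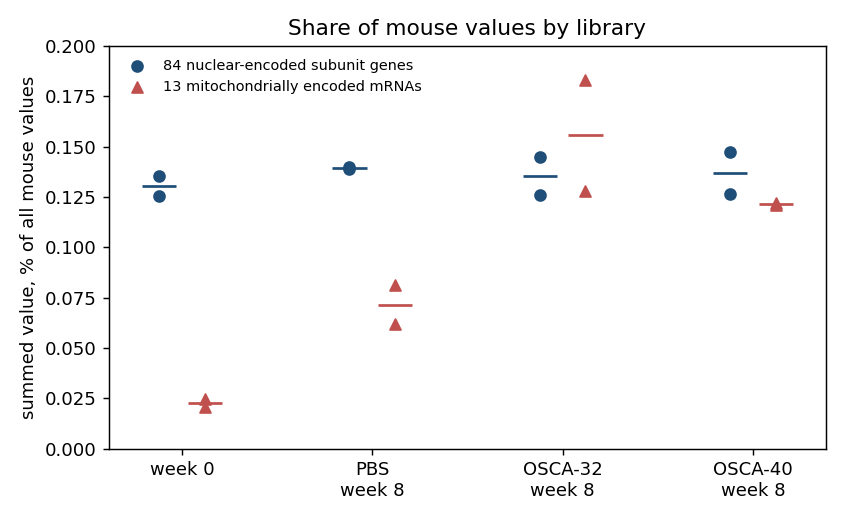
Summed value as a percentage of all mouse values in each of the 8 libraries, for the 84 nuclear-encoded subunit genes (circles) and the 13 mitochondrially encoded mRNAs (triangles); bars are the means of 2 libraries. The circles stay between 0.125% and 0.147%, while the triangles have group means from 0.0225% at week 0 to 0.156% with OSCA-32.

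Of the 84 members, 30 reached 10 in 2 or more libraries and were tested: 13 of complex I, 2 of complex II, 3 of complex III, 5 of complex IV and 7 of complex V. The other 54 were too low. Of all 84, 3, 2, 2 and 2 were listed at 0 in the libraries without tumour cells (2.38% to 3.57%, beside 4.35% to 4.90% of protein-coding genes). For OSCA-32 the counts were 8 and 6 (9.52% and 7.14%, beside 7.76% and 6.95%). For OSCA-40 they were 8 and 11 (9.52% and 13.1%, beside 17.2% and 17.4%). Values were scaled between libraries by a trimmed mean of log ratios, and fold changes are differences of log2(scaled value + 1), so those of low genes come out too small.

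With OSCA-40 against PBS, 1 of the 30 tested members fell and none rose by limma at an adjusted p under 0.05, where 2.33% of the 7655 tested mouse genes fell and 2.89% rose. At an unadjusted p under 0.05, 3 were lower and 3 higher (9.5% and 9.77% of mouse genes). Scaled values of the OSCA-40 and PBS pairs did not overlap in 6 members that were lower and 7 that were higher (20% and 23.3% of the 30), beside 25.7% and 23.3% of mouse genes. The median log2 fold change of the 30 was 0.10, beside -0.04 for all tested mouse genes, and 15 of the 30 were positive. That median lay midway between Sdha at -0.0009 and Uqcrh at 0.20, with no member between them, so it moved easily. It was 0.20 without OSCA-40 replicate 1 and -0.09 without OSCA-40 replicate 2. It was -0.01 without either week 0 library. Those libraries are not part of this comparison, but leaving them out changed which members passed the filter (29 and 28 tested). By complex the medians were -0.02 for I, -0.16 for II, 0.20 for III, 0.35 for IV and -0.04 for V.

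The member that fell was Ndufs7 (ENSMUSG00000020153, chr10:80249121-80256794 on GRCm38, plus strand), a core subunit that holds the last iron-sulphur cluster before the quinone. Its deposited values were 96 and 108 at week 0, 86 and 96 after PBS, 53 and 36 for OSCA-32, and 17 and 13 for OSCA-40. Scaled to a common level they were 67.6 and 74.7, 58.5 and 64.2, 54.0 and 35.8, and 35.1 and 28.1. Both OSCA-40 libraries lay below all 6 others, and both OSCA-32 libraries lay below both PBS libraries. The log2 fold change with OSCA-40 was -0.94 ± 0.20 (SE; 95% interval -1.43 to -0.46; limma, adjusted p = 0.0388). With OSCA-32 it was -0.47 ± 0.20 (limma, adjusted p = 0.501), and the difference between the lines was -0.47 ± 0.20 (limma, adjusted p = 0.315).

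The call on Ndufs7 was close to the threshold. The fold change of Ndufs7 was negative in all 19 alternatives. Library totals alone gave the smallest adjusted p, 6.15e-05 (limma), but that setting leaves the canine share in the fold changes. There the log2 fold change of Ndufs7 was -2.55, beside a median of -1.53 over all tested mouse genes. The call held in 10 of the 19 alternatives, library totals included. It was lost when either PBS library was left out (adjusted p = 0.127 without the first and 0.199 without the second), either OSCA-40 library (0.0546 and 0.127) or either week 0 library (0.0794 and 0.0772). It was also lost with a minimum value of 5 in the filter (0.0660) and with no variance trend (0.112). The 1001 tested genes that share the TG word printed above for Ndufs7 had a median log2 fold change of 0.10 with OSCA-40, beside -0.04 for all tested mouse genes. Of the 1001, 60 were called higher and 18 lower (limma), where 2.89% and 2.33% of all tested mouse genes were. Read placement was not examined, and the part of the shared word in the values of Ndufs7 was not tested.

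Other complex I genes pointed different ways and did not pass. Ndufv1, which binds NADH and the flavin, had scaled values of 9.86 and 6.92 at week 0, 11.6 and 11.4 after PBS, 6.11 and 6.96 for OSCA-32, and 6.20 and 4.32 for OSCA-40. All 4 tumour libraries lay below both PBS libraries, but the week 0 pair reached down to 6.92, among the tumour values. Such a separation of scaled values was seen in 4 of the 30 tested members and in 859 of the 7655 tested mouse genes. Ndufv1 passed the filter through the libraries without tumour cells alone (deposited values 14, 10, 17 and 17, against 6, 7, 3 and 2). Its log2 fold change with OSCA-40 was -1.01 ± 0.29 (limma, adjusted p = 0.0975). Ndufs1, the largest core subunit, went from 55.1 and 46.1 after PBS to 66.1 and 64.7 with OSCA-40, both above all 6 other libraries, with a log2 fold change of 0.37 ± 0.11 (limma, adjusted p = 0.123). Ndufab1 had 103 and 91.6 after PBS and 62.0 and 147 with OSCA-40, a spread wider than the distance between groups. The core subunits Ndufs7, Ndufv1 and Ndufs1, whose proteins stand in one arm of the complex, had the 3 smallest p with OSCA-40 against PBS. Ndufs7 and Ndufv1 were lower there and Ndufs1 higher, with Ndufs7 alone called. As they are named for their p, they cannot show whether core subunits moved together, and that was not tested.

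**Figure D3:**
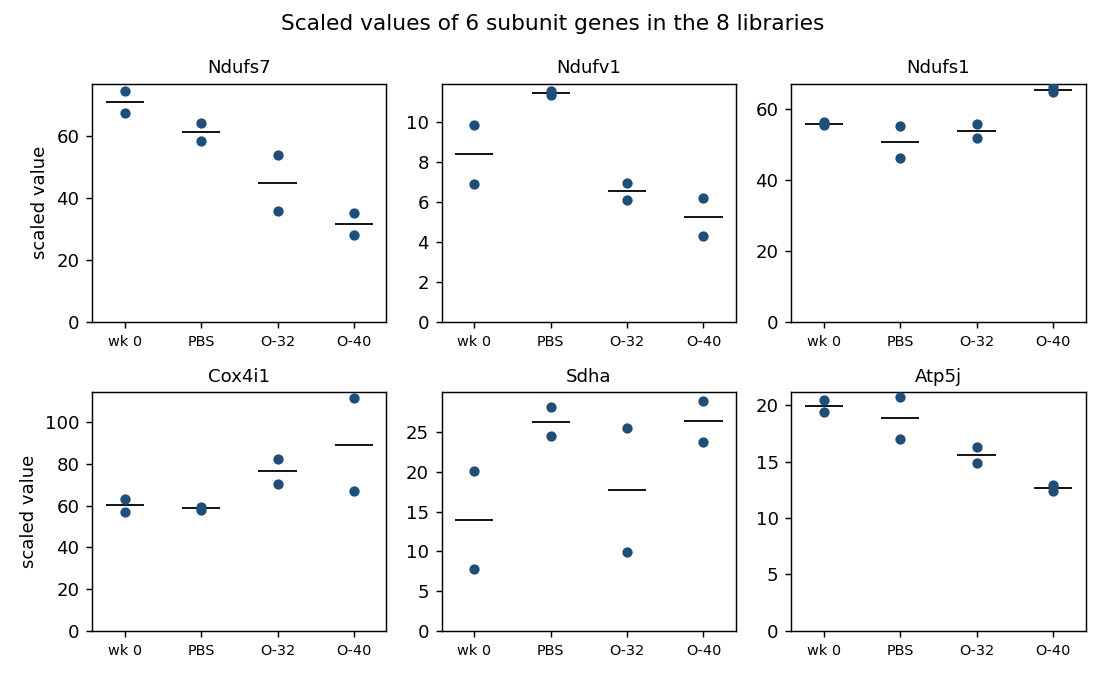
Scaled value in each library for Ndufs7, Ndufv1, Ndufs1, Cox4i1, Sdha and Atp5j, from left to right week 0, PBS, OSCA-32 (O-32) and OSCA-40 (O-40); bars are the means of 2 libraries and axes start at 0. Ndufs7 is lowest in the OSCA-40 libraries at 35.1 and 28.1, while Ndufs1 is highest there at 66.1 and 64.7.

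Complex II, which is also an enzyme of the citric acid cycle, was represented by Sdha and Sdhc. Sdha, the flavoprotein that oxidises succinate, had deposited values of 11 and 29 at week 0, 36 and 42 after PBS, 25 and 10 for OSCA-32, and 14 and 11 for OSCA-40. Scaled, the OSCA-40 pair of 28.9 and 23.7 overlapped the PBS pair of 24.5 and 28.1, and the log2 fold change was 0.00 ± 0.50, with a 95% interval from -1.19 to 1.19. The fall in its deposited values thus did not remain after scaling. In complex III, the core protein Uqcrc2 had scaled values of 12.2 and 8.69 after PBS and 4.07 and 6.96 with OSCA-32, a log2 fold change of -0.83 ± 0.35 (limma, adjusted p = 0.48). Uqcrc2 too passed the filter through the libraries without tumour cells alone (deposited values 12, 8, 18 and 13, against 4, 7, 3 and 3).

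Among complex IV genes, Cox4i1, a regulatory subunit, had scaled values of 57.8 and 59.5 after PBS, 70.3 and 82.5 for OSCA-32, and 112 and 66.9 for OSCA-40. All 4 tumour libraries lay above all 4 others, but the OSCA-40 pair was far apart, and the log2 fold change of both lines against PBS was 0.46 ± 0.19 (limma, adjusted p = 0.294). Cox7c, a small subunit, had scaled values of 5.64 and 16.6 at week 0, 13.6 and 5.35 after PBS, 21.4 and 9.94 for OSCA-32, and 20.7 and 36.7 for OSCA-40. Both OSCA-40 libraries lay above both PBS libraries, but the lower of them fell below 1 OSCA-32 library, and all 4 pairs were wide. Its log2 fold change with OSCA-40, 1.57 ± 0.62, did not pass (limma, adjusted p = 0.211).

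Forms of one subunit could be set side by side at low values only. Cox4i1 had 82 to 90 without tumour cells, where its lung-type counterpart Cox4i2 had 0 to 9. Cox6a1 had 2 to 4 and its muscle form Cox6a2 had 1 to 5, and Cox7a1, the muscle form, and Cox7a2 both had 2 to 6. Cox8a had 5 to 14, the muscle and brown fat form Cox8b 0 to 7, and the testis form Cox8c 1 to 3. Ranges of the Cox6a and Cox7a pairs overlapped, so neither form stood above the other. Of the 3 genes that encode the same c subunit of the ATP synthase ring, Atp5g1 had 15 to 17, Atp5g2 had 4 to 19 and Atp5g3 had 2 to 5.

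Complex V was led by Atp5b, the catalytic beta subunit, with scaled values of 27.9 and 28.1 after PBS, 27.5 and 12.9 for OSCA-32, and 22.7 and 32.4 for OSCA-40. Its log2 fold change with OSCA-40 was -0.04 ± 0.33. Atp5j, coupling factor 6 in the stalk, had scaled values of 20.4 and 19.4 at week 0, 17.0 and 20.7 after PBS, 16.3 and 14.9 for OSCA-32, and 12.4 and 12.9 for OSCA-40. All 4 tumour libraries lay below the others, and the log2 fold change with OSCA-40 was -0.53 ± 0.17 (limma, adjusted p = 0.133). Atp5j overlaps Gabpa on the opposite strand by 701 bases, 1 of 21 members that overlap a protein-coding gene so. Whether the authors' counting used strand is not given in the sources used here. Gabpa itself had values from 1 to 6.

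With OSCA-32 against PBS, 0 of the 30 tested members were called by limma, where 0.379% of tested mouse genes rose and 0.17% fell. Unadjusted, 0 were higher and 2 lower (4.89% and 4.43% of mouse genes), namely Ndufv1 and Uqcrc2. The median log2 fold change was -0.12, beside -0.01 for all tested mouse genes, and it was -0.24 without OSCA-32 replicate 1 and 0.02 without OSCA-32 replicate 2. For both lines against PBS the count was again 0 (limma; 2.08% of mouse genes rose and 1.08% fell), with 1 higher and 4 lower unadjusted (7.99% and 7.25% of mouse genes). These comparisons share the PBS libraries.

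**Figure D4:**
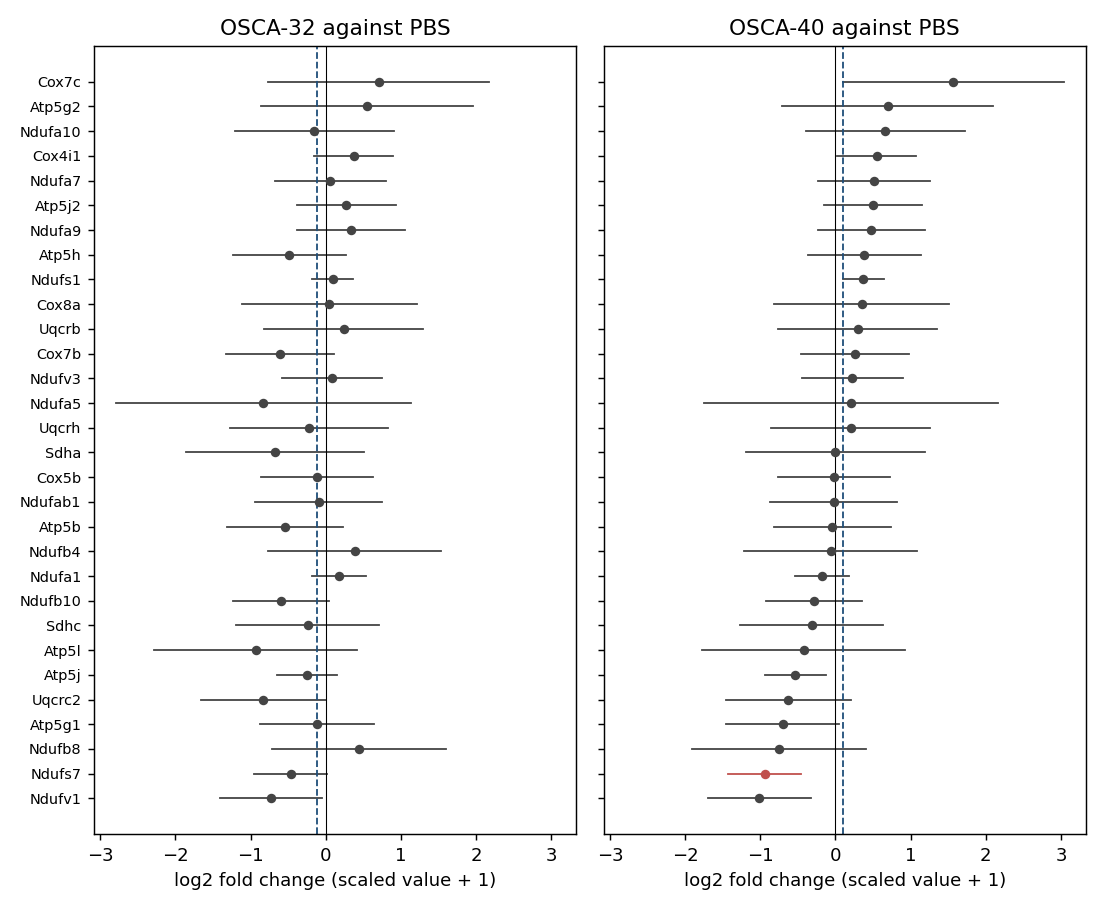
Log2 fold change with its 95% interval for each of the 30 tested members, OSCA-32 against PBS on the left and OSCA-40 against PBS on the right, in the order of the OSCA-40 values; dashed lines mark the medians of -0.12 and 0.10, each of which changed sign when 1 library was left out, and red marks an adjusted p under 0.05. Ndufs7 at -0.94 with OSCA-40 is the single red point.

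Between PBS at week 8 and week 0, 0 of 30 members were called (limma; 0.0523% of mouse genes rose and 0.0653% fell), with 0 higher and 1 lower unadjusted (2.34% and 2.23% of mouse genes). That one was Ndufa9, an accessory subunit near the quinone site, with scaled values of 9.86 and 8.31 at week 0 and 4.08 and 6.02 after PBS (log2 fold change -0.75 ± 0.30). Ndufa9 passed the filter through the week 0 libraries alone (deposited values 14 and 12, against 6 and 9 after PBS). OSCA-40 against OSCA-32 likewise gave 0 of 30 (limma; 0.836% rose and 0.98% fell), with 3 higher and 1 lower unadjusted (7.38% and 7.6% of mouse genes). Those were Cox7b (0.86 ± 0.31), Atp5h (0.87 ± 0.32) and Ndufs1 (0.28 ± 0.11) above, and Ndufb8 (-1.19 ± 0.49) below. Cox7b and Atp5h passed the filter through the libraries without tumour cells alone. Deposited values of Cox7b were 4 and 7 for OSCA-32 and 5 and 5 for OSCA-40. Those of Atp5h were 8 and 5, then 5 and 7, so both genes stand above only after scaling. In this comparison 22 of the 30 fold changes were positive and their median was 0.19, beside -0.01 for all tested mouse genes, and 0.01 without OSCA-32 replicate 2.

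Genes that work with the chain were read from 6 further lists: assembly factors, electron carriers and inner membrane partners, the citric acid cycle, regulators of mitochondrial biogenesis, outer membrane import and quality control, and cytosolic housekeeping mRNAs. They had 47 tested genes, and 0 were called in any of the 5 comparisons (limma). Unadjusted, 2 were higher and 2 lower with OSCA-40 against PBS (9.77% and 9.5% of tested mouse genes), and 0 and 0 with OSCA-32 (4.89% and 4.43%). Of the 46 assembly factors, 17 were tested, with a median log2 fold change of 0.07 with OSCA-40 and -0.03 with OSCA-32. Their median level without tumour cells was 5.88, near that of the subunits, and that of the 17 cycle genes was 8.0. Acad9, a complex I assembly factor singled out here after its values were seen, stood at 1425 to 1497 without tumour cells, above every subunit.

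Markers of possible source cells were read in deposited values, which carry the general fall of mouse values given above, and in the scaled test. In that test 2.89% of tested mouse genes rose and 2.33% fell with OSCA-40 (limma). Unadjusted, 9.77% were higher and 9.5% lower. The summed value of 11 platelet genes was 133 to 156 after PBS, 157 to 186 with OSCA-32 and 193 to 218 with OSCA-40, and 3 of the 4 tested rose with OSCA-40 (limma). Most of that sum, and its rise, lay in Pf4, with 39 and 30 after PBS and 85 and 69 with OSCA-40, and in Tmsb4x, with 43 and 42 and then 95 and 88. Most other genes of the list had lower deposited values with OSCA-40, such as Itga2b (29 and 18, then 11 and 8). Clec1b went the other way, from 2 and 3 to 4 and 5. After scaling, 0 of the 4 tested platelet genes were lower with OSCA-40 at an unadjusted p under 0.05 (limma). The 11 erythroid genes summed to 348 to 379, 286 to 303 and 269 to 297. The largest part lay in Hba-a2, with 184 and 189 after PBS and 194 and 196 with OSCA-40. Other genes of that list did not all follow it, as Hbb-bs had 62 and 49, then 27 and 23. After scaling, 1 of the 7 tested erythroid genes rose with OSCA-40 (limma). At an unadjusted p under 0.05, 5 were higher and none lower. The 12 hepatocyte genes summed to 85 to 89, 94 to 103 and 77 to 78, and 3 of 5 tested rose with OSCA-40. The 14 striated muscle genes summed to 110 to 113, 82 to 88 and 45 to 47, but after scaling 0 of 5 tested were called with OSCA-40 (limma; 1 higher and 0 lower unadjusted). The 13 vesicle components summed to 308 to 331, 185 to 186 and 55 to 60, and 1 of 7 tested fell with OSCA-40. That one was Cd9, a tetraspanin of vesicles (log2 fold change -1.20 ± 0.11; limma, adjusted p = 0.000748). The 6 brown adipocyte genes, which include Cox7a1 and Cox8b, summed to 21 in both PBS libraries, 12 to 22 with OSCA-32 and 5 to 8 with OSCA-40, and all were too low to test. No vesicle, platelet, erythroid or brown adipocyte gene of these lists was at 0 in both libraries of a group, while 1 muscle gene was at week 0 and 1 hepatocyte gene with OSCA-40. The part of these differences in the values of Ndufs7 was not tested.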

How the data were processed

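Per the labels' protocols, exosomal RNA (SeraMir kit) was made into libraries with a stranded SMARTer kit for very small inputs. Per the submitters' processing notes, which give no roles, kallisto 0.43.0, Trimmomatic 0.33.0 and FastQC 0.11.5 were used, and the builds were GRCm38.p5 and CanFam3.1. Which transcripts the index held is not given in the sources used here. Each deposited value is a whole-number score of 1 gene in 1 library, called a count by the authors. Depth cannot be recovered from it, so there are no counting intervals, and a 0 is only listed at 0. A count test would have been used for true counts; the values are not, so limma (3.58.1, R 4.3.3) was applied to log2(scaled value + 1).

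Genes at 10 or more in at least 2 libraries were kept (7655 mouse, 217 canine). Libraries were scaled by an unweighted trimmed mean of log ratios (30% of ratios, 5% of levels). The fit held all 8 libraries with 1 mean for each group, leaving 4 residual degrees of freedom. The moderated variance followed a trend, and p-values were two-sided and adjusted by Benjamini-Hochberg over all genes kept within each of 5 comparisons. Symbols and coordinates are from GENCODE M21 on GRCm38 (31171 of 31300 mouse identifiers). The procedure was tested on simulated data.

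Genes were named by a rule, with further genes chosen for their level or sequence. The rule took members called, the 3 smallest p per comparison, the 10 highest means and the 2 highest per complex. It also took isoform pairs and called genes of other lists. Not all of these are discussed: Ndufa1, Ndufa7, Uqcrb and some isoform pairs, such as Cox5a and Cox5b, are left out. The members and lists were chosen with earlier results of these data known. The values of 1 member are not reported here.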

Additional observations from a re-analysis of the deposited data

How the results depend on the processing

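The 5 counts of called subunits were recomputed under other scalings, filters, pseudocounts, variance models and sample sets. With library totals alone, which leave the canine share in the fold changes (median over all tested mouse genes -1.53 with OSCA-40 and -0.56 with OSCA-32), the counts were 7 for OSCA-32 against PBS, 25 for OSCA-40, 22 for both lines and 11 for OSCA-40 against OSCA-32, all lower. Under that scaling Ndufs1 with OSCA-40 reversed to -1.26, and OSCA-40 against OSCA-32 reversed to -0.083 for Cox7b and -0.092 for Atp5h. For OSCA-40 against PBS the count of 1 became 3 with no filter (Ndufs7, Ndufv1 and Atp5j), 0 with a minimum of 5, 0 without the variance trend and 0 with the replicate block, where Ndufs7 had an adjusted p of 0.0509. Leaving out 1 library, where the lone library of its group is assumed to vary like the other groups, gave 0 to 1. Without OSCA-40 replicate 1 the 1 call was Ndufv3 (0.74, higher), and without OSCA-40 replicate 2 it was Cox4i1 (0.92, higher). For both lines against PBS the count was 1 with a mean of at least 50 (Ndufs7) and 0 to 1 without single libraries (Ndufs7 without OSCA-32 replicate 1, Cox4i1 without OSCA-40 replicate 2). For OSCA-40 against OSCA-32 it was 0 to 1 (Ndufv3 without OSCA-40 replicate 1). Apart from library totals, the cause of these changes was not tested. Of the recomputed counts, 16 moved and 79 were within 1.5 times of those reported. The 79 include the settings without 1 OSCA-40 library for OSCA-40 against PBS, where the gene called and its direction differed. For every comparison but that one the reported count was 0. Of the named members' recomputed fold changes, 246 kept their direction and their side of the threshold, 11 came to pass it and 9, all of Ndufs7 with OSCA-40, no longer passed.

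No pairing by replicate number was seen: deviations of same-numbered libraries correlated at -0.056 to 0.005. With 2 libraries per group and many low values, such correlations cannot exclude a pairing. With 2 libraries per group and no depth, changes can be missed, large ones included, so a count of 0 does not show that the subunits did not change, and 54 of the 84 subunits could not be tested.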
